A study of Mus musculus with 2 samples.

Results

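Transcripts of 9 genes used as surface and secreted markers of fibroblasts and mesenchymal cells were compared between 2 cultures of NIH3T3, an established mouse embryonic fibroblast line. The genes are Ly6a, Ly6e, Thy1, Cd34, S100a4, Mgp, Fap, Cd248 and Eng. They were taken by name from the gene column of the scanner files, with every probe of each, which gave 12 probes for 9 of the 19698 named genes on the array. One culture carried the empty pcDNA3.1 plasmid and the other pcDNA3.1 with MARVELD1, a protein of the MARVEL domain family, to see how its overexpression altered gene expression. Stable lines were selected with G418, and both were grown in the same serum-containing medium. The labels do not say whether a line is a clone or a pool, nor which species the insert came from. RNA of each line was hybridised to 1 single-colour Agilent array, and both arrays lay on 1 slide and were read in 1 scan. With 1 array per group there is no replicate, so no test between the groups was possible and every value below describes these 2 arrays.

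Intensities are the scanner program's background-subtracted signals, with the program's own error of the spot after the ± sign. Log2 differences are the array labelled MARVELD1 minus the empty vector array, after each array was divided by the 75th percentile of its spots. On the 2 arrays 68.7% and 69.0% of spots were well above background. The lowest intensities counted so were 36.6 and 38.1. Marveld1 itself read 8725 and 6293 with one probe, a log2 difference of -0.34, and gave -0.42 with another. It was thus not higher on the array labelled MARVELD1, and whether these probes can read the plasmid's insert is not known. Directions below rest on that label. The cell label was checked with 10 fibroblast markers, among them Col1a1, Col1a2, Vim, Dcn and Pdgfra, with S100a4 both in this list and in the marker set. All 10 were well above background on both arrays, at more than 10 times the lowest such intensity on the empty vector array. Of these 10, 3 were at least 2-fold lower on the array labelled MARVELD1, namely Pdgfrb, Col3a1 and Fn1, and 0 were higher. Among all detected genes 3.52% were lower and 5.4% higher. The median log2 difference of the 10 was -0.43.

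Fibroblasts have no single defining antigen and are recognised by sets of surface and secreted proteins. Ly6a (Sca-1), Ly6e and Thy1 (CD90) are small proteins held in the membrane by a glycosylphosphatidylinositol (GPI) anchor. Ly6a marks stem and stromal cells in many mouse tissues. Ly6e is a widely expressed relative, and Thy1 is found on fibroblasts, neurons and T cells. Cd34 is a sialomucin of haematopoietic progenitors, endothelium and stromal cells. Cd248 (endosialin) is a C-type lectin family protein of pericytes and activated fibroblasts, and Eng (endoglin) is a co-receptor for BMP9 and TGF-beta ligands, best known in endothelium. Mgp encodes matrix Gla protein, a secreted inhibitor of calcification that needs vitamin K. Fap is a membrane serine protease of activated fibroblasts, and S100a4 (fibroblast-specific protein 1) is a small calcium-binding protein found inside and outside cells.

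Each probe is a 60-base oligonucleotide. The probes that the results turn on are shown by their first 30 bases, 5′ to 3′, with mm9 positions as the scanner files give them. Exon and untranslated region boundaries were not looked up for these positions. The pair for Thy1 and the pair for Cd248 are shown because the probes of each pair gave differences of unequal size, and Mgp because it was one of the genes past 2-fold.
Thy1 upstream probe A_51_P420731 (chr9:43854991-43855436, plus strand): gcgcgaatcccatgagctccaataaaagta
Thy1 downstream probe A_52_P479249 (chr9:43856600-43856659, plus strand): cactgctacagcatctcaccgaggaaagaa
Cd248 upstream probe A_52_P5454 (chr19:5070322-5070381, plus strand): tgctatcgctgggtcacacatgctgggaac
Cd248 downstream probe A_51_P188271 (chr19:5070558-5070617, plus strand): caaaggacacaccaggactccaggacctca
Mgp probe A_51_P426270 (chr6:136821125-136821184, minus strand): gccgaggagccagatattagcgcgaagaaa

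The Ly6a probe (A_51_P265495, chr15:74825553-74825612, minus strand) is set against that of Ly6c1 (A_52_P230938, chr15:74875712-74875771, minus strand), a related gene next to it. Over an ungapped overlap of 40 bases, 33 matched, and the 30 best-matching bases are shown with the 4 that differ in capitals. They are bases 6 to 35 of the Ly6a probe and 26 to 55 of the Ly6c1 probe.
Ly6a: gttatagaagCtccaaGgtgggAGtagtgt
Ly6c1: gttatagaagGtccaaTgtgggGAtagtgt

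Of the 9 marker genes 8 were well above background, and 2 of these 8, Mgp and Ly6a, were at least 2-fold lower on the array labelled MARVELD1. Among all 16490 detected genes, 3.52% were at least 2-fold lower. None of the 8 was 2-fold higher (0 of 8), against 5.4% of all genes. Cd248 and Thy1 were lower by less than 2-fold with the probe that stands for the gene and by more with a second probe. Eng was nearly equal on both arrays. Cd34, Ly6e and S100a4 lay slightly above 0, but S100a4 turned below 0 with quantile normalization, with normexp followed by quantile normalization and with loess. Ly6e came close to 0 with quantile normalization (0.02) and lay just below it with normexp before that step. The median of the 8 was -0.29, beside 0.19 for all genes. That median of all genes depends on the scaling and was 0.08 with scaling to the array median, 0.07 with quantile normalization and 0.03 after loess. Relative to the median of all genes, the marker median was -0.48, -0.48, -0.54 and -0.56 under these 4 ways. It was -0.19 with no filter on dim probes, which takes in Fap, and -0.70 with the mean of all probes. Fewer cells of a type and less RNA per cell cannot be told apart in such bulk RNA.

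**Figure D1:**
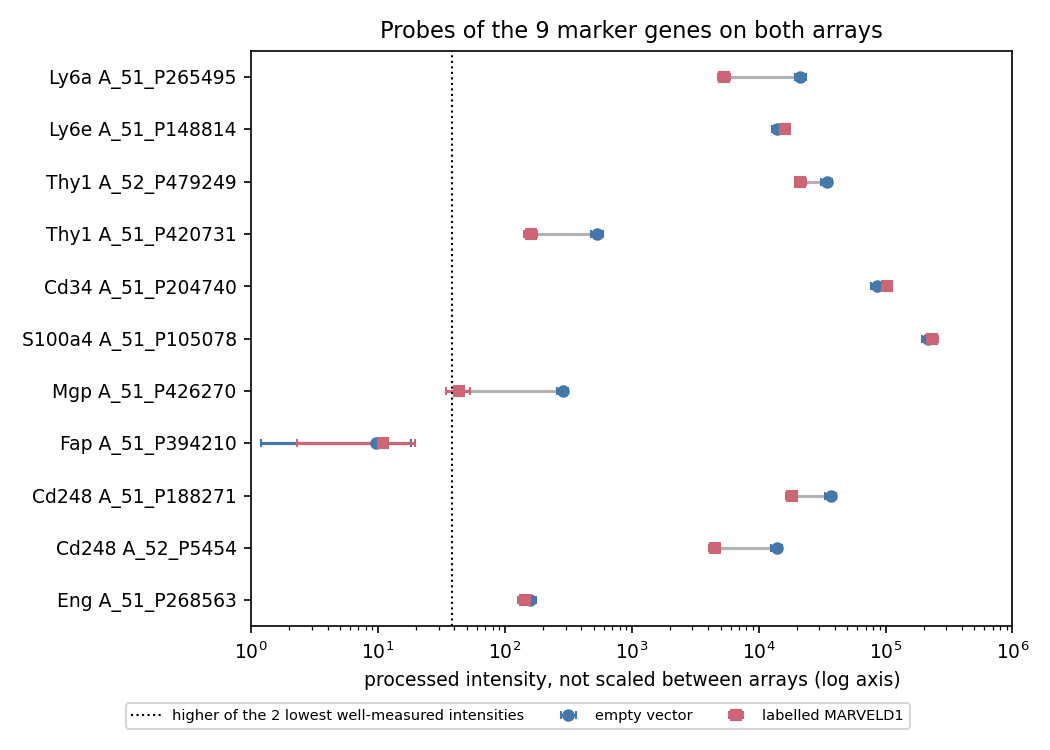
Processed intensity of 11 probes of the 9 marker genes on the empty vector array (circles) and on the array labelled MARVELD1 (squares), on a log axis; bars are the scanner program's error of the spot, and the dotted line is the higher of the 2 arrays' lowest well-measured intensities, 38.1. The widest gaps are those of Mgp, Ly6a, Thy1 probe A_51_P420731 and Cd248 probe A_52_P5454, and Fap lies left of the line on both arrays; the second Fap probe, an outlier spot on 1 array, is not drawn.

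**Figure D2:**
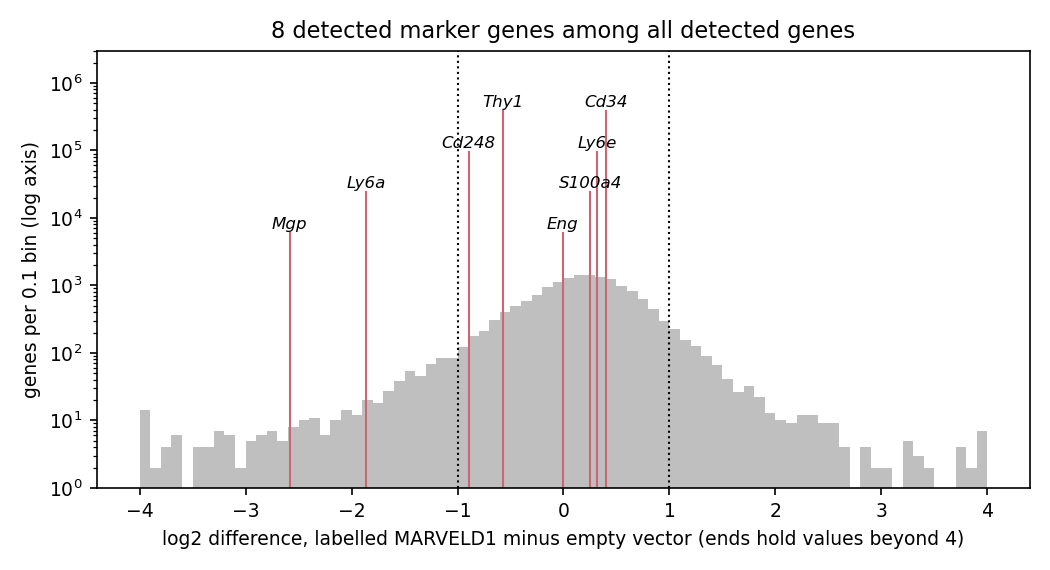
Histogram of the log2 differences of all 16490 detected genes in bins of 0.1 (gene count on a log axis), with the 8 detected marker genes as red lines whose heights only separate the names. Mgp at -2.58 and Ly6a at -1.86 lie beyond the dotted 2-fold line on the left, and Eng, S100a4, Ly6e and Cd34 lie near the peak.

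Ly6a, the Sca-1 antigen, was 3.64-fold lower on the array labelled MARVELD1. Its single probe read 21287 ± 2129 with the empty vector and 5353 ± 535 on the second array, which is far apart beside the spot errors. The log2 difference was -1.86, lower than that of all but 0.90% of detected genes. Probes with at least 8 usable spots on each array gave the spot noise: over the 45 of them at intensities of 3000 and over, the difference between single spots had an SD of 0.16. This noise is technical and does not hold the spread between cultures. It also does not hold the spread between different probes of a gene. That spread had an SD of 0.54 over 5486 genes with several probes well above background on both arrays. Ly6a and Mgp, each with a single probe, could not be checked in this way. Ly6e, which lies 2 measured genes away on chromosome 15, read 14041 ± 1404 and 15982 ± 1598 (A_51_P148814, chr15:74789467-74789526). Those values overlapped within the spot errors. Its log2 difference of 0.31 stood close to 0.32, the median of the 3958 genes at 3000 and over, and was 0.02 with quantile normalization and -0.01 when normexp background correction was added to it.

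Ly6a did not stand alone at its locus. The genes next to it in RefSeq order, Ly6i on one side and Ly6c1 and Ly6c2 on the other, were lower by similar amounts. Ly6i, a Ly6 gene close to Ly6a and Ly6c, read 751 ± 75.5 and 236 ± 24.9, a log2 difference of -1.55 (A_51_P420918, chr15:74813468-74813527). Ly6c1 read 5765 ± 577 and 1803 ± 181, also -1.55. Ly6c2, which with Ly6c1 encodes the Ly6C antigen of monocytes and endothelium, read 67999.6 ± 6800 and 23884 ± 2388, or -1.38 (A_51_P197528, chr15:74938637-74938695). Ly6a and these 3 genes formed an unbroken run of measured genes from Ly6i to Ly6c2, each between 2.61-fold and 3.64-fold lower. Ly6e at one end of the run gave 0.31 and Ly6f at the other -0.08, the latter at a low intensity of 137 and 118.

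The wider cluster, from Psca to Gpihbp1, holds 45 RefSeq genes, of which 17 were measured. Among the 17, 5 passed 2-fold on the lower side and 0 on the higher, beside 3.52% and 5.4% of all genes. Their median was -0.08. The gene lower outside the run was Slurp1, a secreted Ly6 protein of skin, which stood apart from the run and read 1527 ± 153 and 80.1 ± 11.3, a 17.5-fold difference. Near it Lynx1, a GPI-anchored modulator of nicotinic receptors, read 3376 and 1728, 1.79-fold lower. Lypd2, which lies between them, gave 0.31. The lowering at this locus was therefore uneven, with genes near 0 between those that were lower. Probes of these paralogues can share targets. The Ly6a and Ly6c1 probes matched over 82.5% of their overlap as shown above, so signal of one transcript on the other's probe cannot be told apart from its own. The other pairs among the Ly6e, Ly6i, Ly6a, Ly6c1 and Ly6c2 probes matched over 37.2% to 57.6% of their best overlap, with no shared run longer than 8 bases. Related transcripts elsewhere in their length were not compared.

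**Figure D3:**
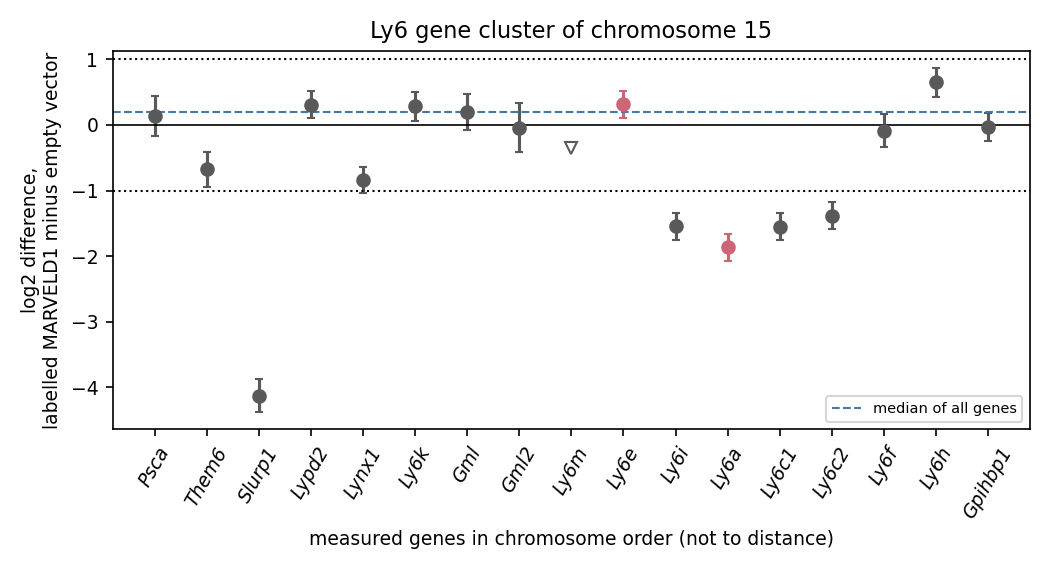
Log2 difference of the 17 measured genes of the chromosome 15 Ly6 cluster in chromosome order, with Ly6e and Ly6a in red; bars are the spot errors of both arrays combined, the open triangle is a bound, dotted lines mark 2-fold and the dashed line is the median of all genes, 0.19. Ly6i, Ly6a, Ly6c1 and Ly6c2 sit together between -1.38 and -1.86, and Slurp1 lies at -4.13.

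Cd248, the endosialin gene, was lower on the array labelled MARVELD1 with both of its probes. The downstream probe read 36870.1 ± 3687 and 18163 ± 1816, which is 1.86-fold (-0.89 on the log2 scale). The upstream probe read 13893 ± 1389 and 4526 ± 453, which is 2.81-fold (-1.49). On neither probe did the arrays overlap within the spot errors. The downstream probe's value also lay under -0.77, the lower end of the central 95% of the 3958 genes at intensities of 3000 and over, of which 1.31% were at least 2-fold lower. Cd248 passed the 2-fold limit with loess, quantile normalization without and with normexp, scaling to the array median, the authors' table and the mean of both probes.

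Thy1 showed the same order of its probes. The downstream probe read 34625 ± 3462 and 21285.5 ± 2129, a log2 difference of -0.57. The upstream probe, whose 60 bases span 446 bases of the genome, read 533 ± 54.1 and 160 ± 18.5, or -1.61. Both were lower on the array labelled MARVELD1, but by 1.49-fold and 3.05-fold. The downstream probe's -0.57 lay within the central 95% of bright genes (-0.77 to 1.03). The upstream probe's -1.61 lay under the lower end of that range for dimmer genes. That end was -1.22 at intensities under 300 and -1.18 at 300 to 3000. Across 4984 genes with probes at least 200 bases apart, the most upstream probe's difference minus the most downstream one's had a median of -0.27, with quartiles of -0.67 and 0.14. It was -1.03 for Thy1, whose probes start 1609 bases apart, and -0.60 for Cd248, at 236 bases. Both genes' gaps thus had the sign seen in 67.6% of genes, and Thy1's was larger than most, with 11.7% of genes lower. The part of probe position in these values was not tested.

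Cd34 and Eng, which endothelium shares with stromal cells, differed little. Cd34 was read at 85083 ± 8508 and 102799.8 ± 10280.0 (A_51_P204740, chr1:196787392-196787451). Its log2 difference of 0.40 was close to the median of bright genes, 0.32, and it was 0.09 with quantile normalization and 0.01 with normexp added to it. Eng was read at 158 ± 18.3 and 144 ± 17.1 (A_51_P268563, chr2:32537310-32537369), and the arrays overlapped within the spot errors. Its log2 difference was -0.01, where the SD of a difference between single spots was 0.57 at intensities under 300. With 1 spot per array, a difference in Eng within that spread was not detectable.

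Mgp had the largest difference of the set in the main setting, but not with normexp and quantile normalization, which gave -1.62 for Mgp and -2.10 for Ly6a. Its single probe read 285 ± 29.6 with the empty vector and 43.6 ± 9.06 on the array labelled MARVELD1. This is a log2 difference of -2.58, with no overlap of the spot errors. The second value was only 1.14 times the lowest intensity counted as well above background on that array, so little room was left below it. The difference was lower than that of all but 0.44% of genes. It was larger than the SD of 0.57 between dim single spots. Both levels were low, and the spot noise at this intensity is the widest of the 3 classes used (0.57, 0.26 and 0.16).

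S100a4 hardly differed. It read 214601 ± 21460.1 and 233931 ± 23393 (A_51_P105078, chr3:90409842-90409902), within the spot errors of each other. The log2 difference of 0.25 was under the median of bright genes, 0.32, and its sign turned with the scaling, to -0.01 with quantile normalization, -0.14 with normexp before that step and -0.16 after loess. No spot of any marker probe was saturated (0 on each array).

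Fap was not detected. Its RefSeq probe (A_51_P394210, chr2:62340501-62340560, minus strand) read 9.62 ± 8.43 and 10.9 ± 8.58, not well above background on either array. A second probe, made to a cDNA clone, lies farther upstream in the direction of transcription (A_52_P510387, chr2:62373862-62373921). It read 7.42 ± 7.39 on the empty vector array, and its spot on the other array was rejected by the scanner program as an outlier. No difference is given for Fap. Among genes related to it by family, Dpp4, a close relative that lies 2 measured genes away on chromosome 2, read 108 and 70.9, a log2 difference of -0.47. Of 13 dipeptidyl peptidase family and substrate genes, all 13 were detected, around a median of 0.07. With the probe that stands for the gene, 0 passed 2-fold in either direction, beside 3.52% of all genes lower and 5.4% higher. Another probe of the collagen gene Col1a1 gave -1.60, and another of Dpp6 was at least 2.49-fold lower.

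**Figure D4:**
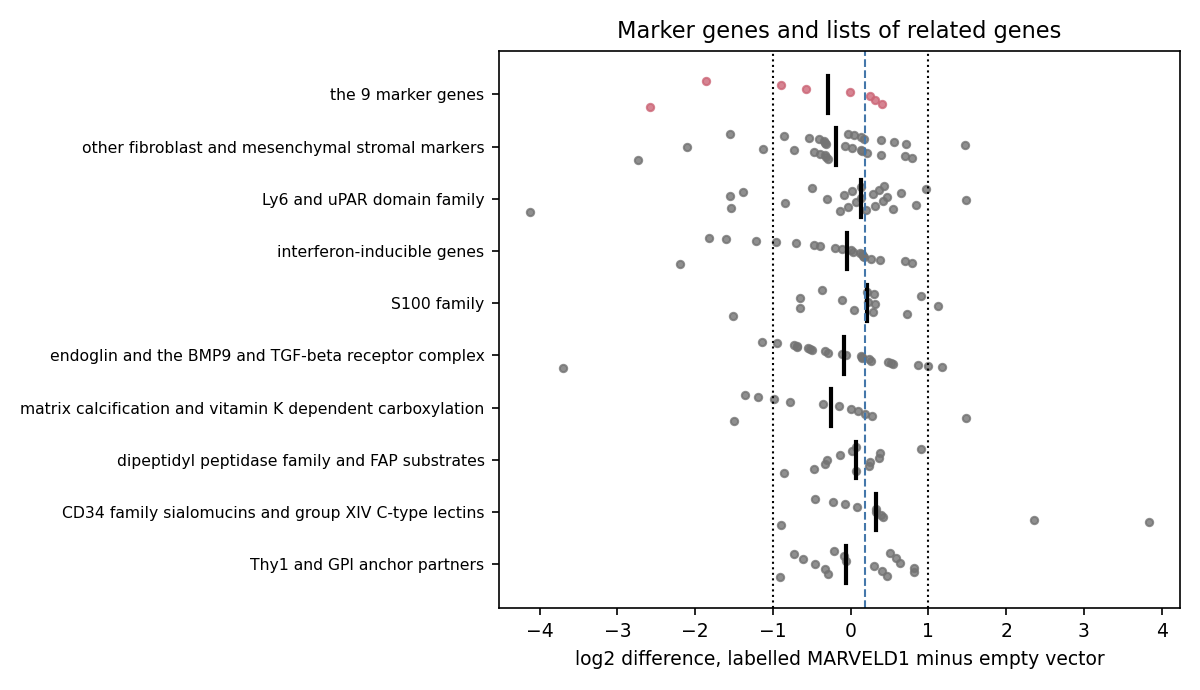
Log2 difference of each detected gene (points, spread vertically only for legibility) and the median (black bars) for the marker genes, in red, and for 9 lists of related genes; dotted lines mark 2-fold and the dashed line is the median of all genes, 0.19. The marker genes have a median of -0.29 and reach from -2.58 to 0.40, and Slurp1, Id2, Podxl and Pdpn lie farthest out among the related genes.

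Related genes were described by lists. Of 32 other detected fibroblast and mesenchymal markers, 12.5%, or 4 genes, were 2-fold lower, against 3.52% of all genes. On the higher side 1 gene passed 2-fold, against 5.4% of all genes. These counts take the probe that stands for each gene. Their median was -0.19. Podoplanin (Pdpn), a surface sialoglycoprotein that like Thy1 and Cd248 is used to sort fibroblasts, read 1626 and 223, a log2 difference of -2.74, and -2.73 with its other probe. The PDGF receptor gene Pdgfrb gave -2.10 and the collagen gene Col3a1 -1.56. Another Col3a1 probe, dim at 102 and 86.9, gave -0.10. Fn1, the fibronectin gene, gave -1.12 with the probe that stands for it and -2.47 with another. Postn, a matricellular protein gene, gave 1.47 with one probe and -0.20 with the other. Further probes passed 2-fold in both directions where the gene's own did not. Higher were those of Zeb2, at 2.69, and Fbln1, at least 5.29-fold. Lower were those of Col1a1 (-1.60), Sparc (-1.20), Prrx1 (-1.94), Itgb1 (-1.80) and Cdh11 (at least 2.07-fold). Surface antigens did not all lie low: Cd44, the hyaluronan receptor, gave 0.70, 0.33 and 0.03 with its 3 probes, and the adhesion molecule gene Vcam1 0.72, with further Vcam1 probes at 0.19 and -0.50.

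Among 26 detected genes of the Ly6 and uPAR domain family, 4 were 2-fold lower, all of them in the chromosome 15 cluster described with Ly6a, and 1 higher, the urokinase receptor gene Plaur at 1.48 with one probe and 0.69 with the other. Because Ly6a and Ly6e are both inducible by interferon, 20 detected interferon-inducible genes were set beside them. Past 2-fold, 4 of them were lower and 0 higher, and their median was -0.05. The shares of all genes were 3.52% lower and 5.4% higher. Ifit1, an RNA-binding antiviral effector, gave -2.19, the ubiquitin-like modifier gene Isg15 -1.82 and Ifit3 -1.61, near the value of Ly6a. The guanylate-binding protein gene Gbp2 gave -1.22. Bst2, the tetherin gene, gave 0.79.

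S100a4 lies within the S100 gene cluster of chromosome 3. Of 14 detected S100 genes, 1 passed 2-fold on each side, around a median of 0.22. Of all genes 3.52% were lower and 5.4% higher. S100a6, the calcyclin gene 2 measured genes away, read 175192 and 184913, or 0.21. S100a16, also nearby, was 2.85-fold lower at 326 and 105, and S100a8, a calprotectin subunit gene of neutrophils, 2.18-fold higher at 318 and 634.

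For Cd34 and Cd248 the relatives were the CD34 family and the group XIV C-type lectins. Here 2 of 11 were 2-fold higher and 0 lower, beside 5.4% and 3.52% of all genes, with a median of 0.33. Podxl (podocalyxin), a sialomucin of the CD34 family, read 32.3, not well above background, and 479, and was at least 14.3-fold higher, while its other probe was not above background on either array. Cd93, a lectin of the same group as Cd248, read 688 and 3241, a log2 difference of 2.36, and 0.92 with its other probe. Cd248 and Cd93 thus lay on opposite sides of the median of all genes. Mmrn2, which encodes an extracellular protein that binds CD248-group lectins, gave -0.90.

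The partners of Eng were measured as 24 genes of the BMP9 and TGF-beta receptor complex and its targets. Past 2-fold, 2 of them were lower and 1 higher, beside 3.52% and 5.4% of all genes, around a median of -0.09. The type I receptor gene Acvrl1, a partner of endoglin, read 103 and 90.4 and gave -0.07. The type II receptor gene Tgfbr2 gave 0.26, and 0.15 and -0.75 with further probes. The target genes Id2 and Id3 gave -3.71 and -1.14, with -1.92 for the other Id2 probe, and Smad7, an inhibitory Smad, 1.17 at low intensities of 59.9 and 123. For Mgp, 12 genes of calcification and vitamin K dependent carboxylation were detected. Of these 3 were lower and 1 higher past 2-fold, beside the same shares of all genes, with a median of -0.26. The carboxylase gene Ggcx, needed to make active matrix Gla protein, gave 0.19 and the vitamin K reductase gene Vkorc1 0.27. Enpp1, which makes the calcification inhibitor pyrophosphate, gave -1.36 and -1.30 with its 2 probes, the quinone reductase gene Nqo1 -1.50 and the osteocalcin gene Bglap -1.20. The 1 higher gene, Ahsg, was not well above background on the empty vector array and was at least 2.79-fold higher.

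Thy1 binds integrins and sits in lipid rafts, and of 17 detected partner and GPI anchor genes 0 passed 2-fold in either direction with the probe that stands for the gene, around a median of -0.06. Other probes of the integrin genes Itgb1 and Itgb3 gave -1.80 and 1.14. Piga, which starts GPI anchor synthesis and is needed for the anchors of Ly6a, Ly6e and Thy1, gave 0.63 and 0.44 with its 2 probes. Cav1, a membrane raft protein gene, gave -0.62 with one probe and -2.27 with the other. The nearest 3 measured genes on each side of every marker gave 49 distinct neighbours. Of these 4 were 2-fold lower, namely Ly6i, Ly6c1, Ly6c2 and S100a16, and 1 was higher, D630033O11Rik near Thy1. The shares of all genes were 3.52% lower and 5.4% higher. For Thy1, Cd34, Mgp, Fap, Cd248 and Eng 0 of 6 neighbours each were 2-fold lower. The 6 neighbours of Mgp had a median of 0.34.

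Because Cd34, Eng, Thy1 and Ly6a also mark other cell types, lists of those types were read on the same arrays. Of 12 endothelial markers 11 were detected, Erg was not, and Pecam1 and Tie1 were well above background on 1 array only; the summed intensity of the list was 2962 and 2174. Of the 11, 8 lay above 0, and the median was 0.28. Among all genes 10817 of 16490 lay above 0, with a median of 0.19. Cdh5, the VE-cadherin gene, read 1289 and 708, a log2 difference of -0.74. Its other probe read 190 and 52.2, or -1.74. Flt1, a VEGF receptor gene, gave -1.40 with one probe and 0.21 with another. All 10 T cell and lymphoid markers were counted as detected, with sums of 1550.3 and 1897, but Ptprc, the pan-leukocyte antigen CD45, read only 41.1 and 52.2, and Cd3d 47.0 and 33.2. In the haematopoietic progenitor list, with sums of 1783 and 3044, Kit read 43.0 and 51.9, Runx1 gave 1.58 and 0.26 with its 2 probes, and Gata2 gave 1.07 and 0.91. Spi1 went the other way, at 220 and 101, or -0.99. Of the 7 progenitor genes 2 were 2-fold higher and 0 lower, beside 5.4% and 3.52% of all genes. The macrophage list summed to 5835 and 4514, of which Cd14 made up 4195 and 2999, with Tyrobp not detected. Of its 7 detected genes 4 lay above 0, with a median of 0.11, under the 0.19 of all genes. Cartilage markers, a tissue in which Mgp is also made, summed to 7179 and 3661, most of it Sox9 at 6193 and 2873, and Matn1 was not detected. Smooth muscle and pericyte markers, of a lineage that shares Cd248, summed to 97585 and 113169, and Des was not detected. Most of both sums was the smooth muscle actin gene Acta2, at 83113 and 107869. Acta2 gave 0.50 with that probe and -1.30 and 1.14 with others. A further, dim Acta2 probe, well above background on the array labelled MARVELD1 alone, was at least 2.70-fold higher. Tagln, a smooth muscle actin-binding protein gene, was 9.70-fold lower. Cspg4 gave -0.37 with the probe that stands for it, and -1.75 and 0.44 with others. Of the 7 epithelial markers Epcam, Cdh1, Krt19, Cldn4 and Esrp1 were not detected, and Krt18, a keratin gene, was well above background on the array labelled MARVELD1 alone (19.4 and 78.7, at least 2.35-fold higher). Whether cells of another type had a part in the marker values was not tested.

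**Figure D5:**
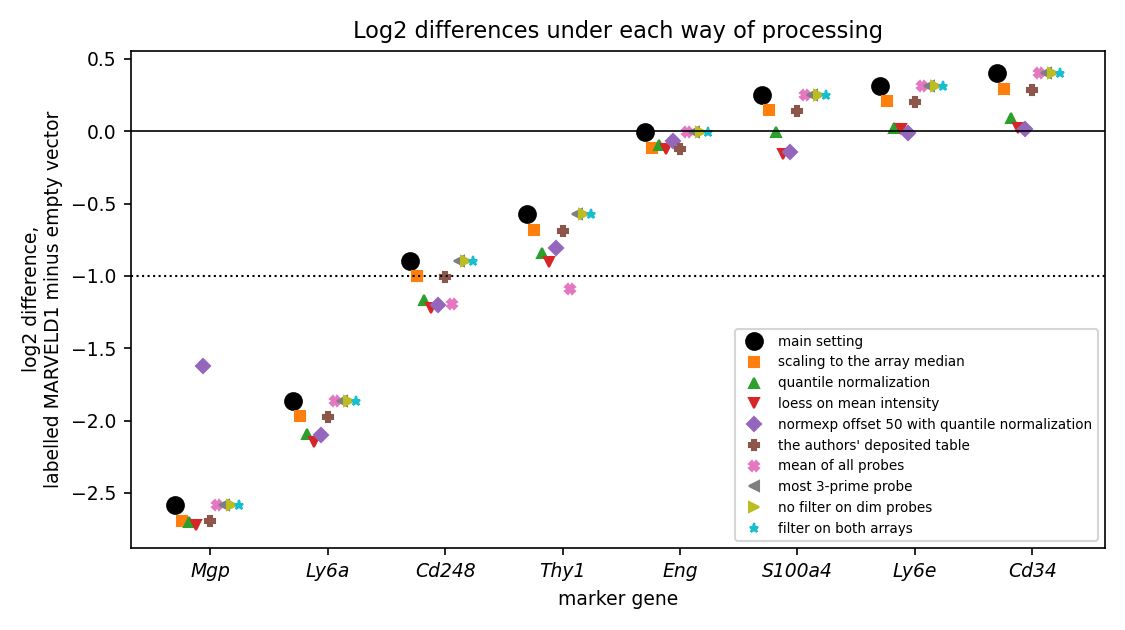
Log2 difference of the 8 detected marker genes in the main setting (large black circles) and under 9 other ways of processing, with genes ordered by the main value and the dotted line at 2-fold lower. Ly6a and Mgp stay below the line in all 9, Cd248 lies on or below it in 6 and Thy1 in 1, and the values of S100a4 and Ly6e cross 0.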

How the data were processed

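Per the file headers, spot intensity was read with Agilent Feature Extraction 9.5.3.1, which subtracted background, removed trends across the slide and put surrogate values in place of very low signals, with no scaling between arrays. Its own error of each processed intensity is a model estimate and no replicate. The authors also deposited a table of intensity for 26851 probes; its columns equal the processed intensity divided by 124.6 and 123.3, and what sets these factors is not given in the sources used here.

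From the 43379 non-control spots per array, outlier spots (116 and 223) were left out. Log2 intensity minus the array's 75th percentile was averaged over spots of a probe. Of 41084 probes usable on both arrays, 79.4% were named by RefSeq accession, symbol or unique older symbol (assembly GRCm38.p6, for names and gene order only). A gene was represented by its brightest probe among those above background on either array. Where it was above background on 1 array, the difference is a bound against the lowest well-measured intensity, and bounds pointing against the bright array were left out. The limit of 2-fold is a limit of size, not a test. The members and lists were chosen with earlier results of these data known. Named were all marker probes and, from each list, up to 3 genes past 2-fold in each direction; other genes named were chosen after their values were seen. Alternatives were computed with limma 3.58.1 in R 4.3.3 and Python 3.11.15, and the calculation was tested on simulated data. The precision is limited by the number of arrays.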

Additional observations from a re-analysis of the deposited data

Results flagged for a closer look

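A spot left out of the comparison carried a signal that the empty vector array did not have. The second Fap probe, made to a cDNA clone, read 236.91 ± 30.7 on the array labelled MARVELD1 and 7.42 on the empty vector array, where it was not well above background. The scanner program marked the first of these spots as non-uniform, so it was not used, and the RefSeq probe of Fap was not above background on either array. The cause was not tested.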

How the results depend on the processing

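The number of marker genes at least 2-fold lower was 2 in the main setting, with the most 3-prime probe, with no filter, with the filter on both arrays, at a 3-fold limit and when every probe had to pass. It was 3, with Cd248, under the 4 other normalizations (array median, quantile, normexp followed by quantile, and loess), in the authors' deposited table and at 1.5-fold, and 4, with Thy1 as well, with the mean of all probes. The shares of all genes that were lower were 8.88% at the 1.5-fold limit and 1.29% at the 3-fold limit. The number of marker genes higher stayed at 0 throughout, also at these 2 limits, where 19.46% and 1.21% of all genes were higher. Of 164 detected genes in the lists of related genes, 25 passed 2-fold, 18 of them lower and 7 higher. At 1.5-fold 57 passed, 34 lower and 23 higher, beside 8.88% and 19.46% of all genes. At 3-fold 9 passed, 7 lower and 2 higher, beside 1.29% and 1.21%. Over 9 alternatives Ly6a ranged from -2.15 to -1.86 and Mgp from -2.72 to -1.62. An alternative was taken as unmoved within 0.39, the SD of a difference between single spots. With all genes, 3.52% were lower and 5.40% higher in the main setting, but 4.33% and 3.95% with scaling to the array median and 4.68% and 3.65% after loess. Replicates could not be left out, as there was 1 array per group. No paired analysis was possible because the result comes from no test.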
